A study of Homo sapiens with 100 samples.

Results

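The genes described here are 43 ribosome biogenesis factors, taken by symbol from a count table of 78894 gene identifiers. All 43 were in the table under 1 identifier each, and all 43 passed the filter on low counts in the drug set. They comprise 3 RNA polymerase I subunits, 4 proteins of the box C/D small nucleolar ribonucleoprotein (snoRNP) and its chaperone, 4 core proteins of the box H/ACA snoRNP, 4 abundant nucleolar proteins or RNA regulators, 13 factors of the small subunit processome and 40S maturation, and 15 factors of 60S assembly.

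Ribosomes are assembled in the nucleolus. RNA polymerase I transcribes the long precursor of the ribosomal RNAs, box C/D particles guide its 2′-O-methylation, box H/ACA particles guide its pseudouridylation, and separate sets of factors then fold, cleave and export the small and the large subunit. The work uses much of the energy of a growing cell, and in B cell lymphomas the transcription factor MYC is the textbook activator of these genes.

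The cells were TMD8, an established line of the activated B cell type of diffuse large B cell lymphoma, which depends on signalling from the B cell receptor through Bruton's tyrosine kinase (BTK). There were 5 wild-type clones and 6 clones carrying A428D, a substitution that the series' design text and growth protocol place in the cells' own BTK gene, whereas the sample titles write it beside SF3B1. Each clone was kept for 24 h with 1 of 8 conditions, giving 88 libraries: DMSO as the vehicle, zelebrudomide, bexobrutideg, pomalidomide, venetoclax, and venetoclax with each of the other agents. Zelebrudomide and bexobrutideg are BTK degraders, pomalidomide directs the cereblon ligase to the Ikaros family proteins, as zelebrudomide also does, and venetoclax inhibits BCL2. The labels spell the degraders Zelbrudomide and Bexobrutidig, and doses are not given in the sources used here. A second set held untreated cultures of the same 5 and 6 clones and 1 of the parental line. The readout was 3′ RNA sequencing, so a gene's reads come from the end of its transcript, and all libraries of a clone descend from 1 cell.

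Counted reads ran from 1476519 to 12501775 per library. The members took 0.30 to 0.763% of them. Of 8 B cell markers, 7 were detected in all 100 libraries (MS4A1, the gene of CD20, at 612 to 2458 CPM, counts scaled to library depth). The T cell markers CD3D, CD3E and CD3G reached at most 0.551 CPM, and TRBC1, CD2 and TRAC at most 1.25, 1.86 and 2.26 CPM. TRAC had a median of 0.442 CPM and was at 0 in 14 libraries. The myeloid markers CD14 and CSF1R reached at most 0.292 and 2.14 CPM. Of the lists for myeloid, fibroblast and endothelial cells, CD68, COL1A1 and PECAM1 were the most abundant, at medians of 21.6, 7.63 and 1.52 CPM. In bulk RNA, fewer cells of a type and less RNA per cell cannot be told apart.

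One library stood apart. The third wild-type clone under bexobrutideg with venetoclax was the shallowest, with 1476519 reads. The ribosomal protein genes held 23.5% of its counts, against 34.7 to 36.8% in the other 4 libraries of its group, and mitochondrial transcripts held 6.24%, against 9.22 to 9.96%. The members' summed share was its group's highest, 0.589% against 0.382 to 0.417%, although BYSL, PPAN and BOP1 were at 2.99, 3.99 and 6.48 CPM, far below the other libraries. For this group the total counts of called members, MYC and the largest changes are given with and without this library. Counts by role group and values of DKC1, NOP10, FBL and genes outside the member list include it.

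Transcription start regions are shown for 6 members to set out the sequence that MYC and its partner MAX recognise, since the members moved together in the results that follow. The E-box CACGTG, which reads the same on both strands, was searched in the 300 bases from 250 before to 50 after each RefSeq gene start (build GRCh38.p14), in which 37 of the 43 members matched by symbol. It occurred in 18 of these 37, or 48.6%, against 8.77% of all 27305 genes in that table and 12.8% of the 9993 genes of it that were tested here. The windows run from 70 bases before to 25 after the start, 5′ to 3′ on the gene's own strand, with the E-box in capitals, and the last one, the member with the largest rise under venetoclax, has none in its 300 bases. Where a gene had several starts, the entry with the motif is shown. A match is a description of the letters, not a measured binding site.
MRTO4: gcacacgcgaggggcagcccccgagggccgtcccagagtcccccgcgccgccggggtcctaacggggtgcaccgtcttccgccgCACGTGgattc
LYAR: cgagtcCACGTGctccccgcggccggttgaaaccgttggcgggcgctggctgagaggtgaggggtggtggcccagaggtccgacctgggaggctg
DDX21: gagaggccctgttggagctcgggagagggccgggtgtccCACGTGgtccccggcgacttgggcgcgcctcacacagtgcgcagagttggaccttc
GNL3: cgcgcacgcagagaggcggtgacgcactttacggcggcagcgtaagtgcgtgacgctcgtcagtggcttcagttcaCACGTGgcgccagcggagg
FBL: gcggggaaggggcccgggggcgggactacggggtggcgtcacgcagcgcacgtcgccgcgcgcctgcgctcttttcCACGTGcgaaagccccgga
NOP16: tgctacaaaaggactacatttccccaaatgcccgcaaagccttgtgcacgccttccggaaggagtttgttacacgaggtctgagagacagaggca

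These windows lie at chr1:19251735-19251829 on the plus strand for MRTO4, chr4:4289997-4290091 on the minus strand for LYAR, chr10:68956577-68956671 on the plus strand for DDX21, chr3:52685962-52686056 on the plus strand for GNL3, chr19:39846355-39846449 on the minus strand for FBL and chr5:176388574-176388668 on the minus strand for NOP16.

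Venetoclax raised nearly the whole set in the wild-type clones. By edgeR's quasi-likelihood test with Benjamini-Hochberg adjustment over 14962 genes, 41 of 43 members rose at an adjusted p under 0.05 and none fell, where 15.4% of all genes tested were called higher. Their median log2 fold change against DMSO was 0.63, the median over all genes being -0.06. Measured clone by clone, 42 members were higher under venetoclax in every one of the 5 clones, against 22.6% of all genes. The members' median change in a clone lay between 0.57 and 0.78.

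**Figure D1:**
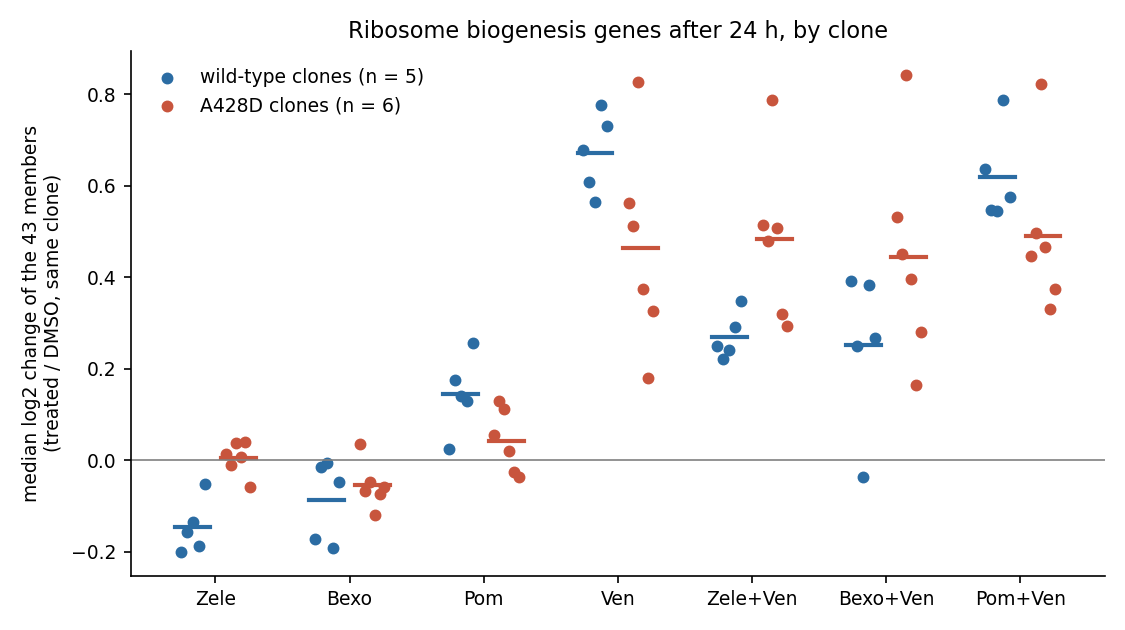
Median log2 change of the 43 members in each clone, treated against DMSO in the same clone, for the 7 treatments; points are clones (5 wild-type, 6 A428D) and lines are group means. Every clone is above 0 under venetoclax, the wild-type clones between 0.57 and 0.78 and the A428D clones between 0.18 and 0.83.

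NOP16, a nucleolar 60S assembly factor, gave the largest rise. Its normalised levels in the 5 wild-type clones were 27.5, 28.4, 29.6, 23.3 and 24.3 CPM in DMSO and 53.8, 59.1, 60.1, 46.9 and 55.2 CPM in venetoclax (log2 fold change 1.05, SE 0.13, adjusted p = 1.68e-09). The lowest venetoclax library was well above the highest DMSO library. NOLC1, the chaperone that binds both classes of snoRNP, stood at 45.9, 56.3, 59.5, 46.3 and 47.8 CPM in DMSO and at 94.3, 110, 108, 103 and 111 CPM in venetoclax (1.04, SE 0.12, adjusted p = 7.35e-11), again without overlap.

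Among the other 60S factors, all 15 of which rose, BOP1 forms the PeBoW complex with PES1 and WDR12. Its levels went from 21.8, 26.1, 24, 24.2 and 24.8 CPM to 35.5, 50, 52.2, 42 and 52.8 CPM (0.945, SE 0.15, adjusted p = 6.65e-07). MRTO4, a homolog of the ribosomal stalk protein P0 that holds its place on the pre-60S particle, went from 26.1, 32, 28.4, 25.9 and 28.3 CPM to 46.5, 59.9, 55.1, 51.5 and 57.1 CPM (0.942, SE 0.13, adjusted p = 5.65e-08). Neither gene had a venetoclax library as low as any DMSO library. PPAN, the human SSF1 homolog, rose by 0.925 (SE 0.15, adjusted p = 9.46e-07). The smallest called changes of this group were those of NLE1 at 0.32, DDX18 at 0.37 and GNL2 at 0.39, and PES1 and WDR12 changed by 0.71 and 0.65.

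The 13 small subunit factors also all rose. BYSL, the bystin of late 40S maturation, was at 11.3, 16.7, 16.3, 13.7 and 15.3 CPM in DMSO and at 25.3, 26, 31.7, 25.7 and 29.5 CPM in venetoclax (0.915, SE 0.17, adjusted p = 9.33e-06). RRP12, an export factor, was at 13, 13.7, 15.5, 11 and 14.9 CPM in DMSO and at 18.9, 24, 27.7, 21.7 and 25.1 CPM in venetoclax. In both genes the ranges were separate. UTP20, a scaffold of the small subunit processome, rose by 0.877 (SE 0.14, adjusted p = 6.45e-07), and WDR3 gave this group's smallest change, 0.49.

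The 3 polymerase subunits moved by nearly the same amount: POLR1A, the catalytic subunit, POLR1B and POLR1C, which RNA polymerase III shares, changed by 0.55 to 0.63. All 4 H/ACA proteins rose. GAR1 went from 40.5, 56.8, 59.7, 48.6 and 47.2 CPM to 79, 90.5, 94.4, 89.9 and 89.8 CPM (0.811, SE 0.14, adjusted p = 2.57e-06), and NHP2 and the pseudouridine synthase DKC1 changed by 0.76 and 0.67, while the small protein NOP10 changed by 0.24. Of the C/D group NOP56 went from 127, 144, 142, 109 and 126 CPM to 238, 241, 236, 206 and 220 CPM (0.816, SE 0.10, adjusted p = 2.79e-09). LYAR, a nucleolar zinc finger protein, rose by 0.836 (SE 0.13, adjusted p = 7.48e-07), and the helicase DDX21 changed by 0.67.

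The textbook nucleolar proteins did not behave alike. NCL, nucleolin, was at 539, 517, 547, 456 and 426 CPM in DMSO and at 892, 744, 773, 764 and 772 CPM in venetoclax, a change of 0.67. FBL, the C/D methyltransferase fibrillarin, was at 451, 509, 495, 525.7 and 517 CPM and then at 535, 592, 610, 540 and 590 CPM, which is separate in range but a log2 difference of only 0.20 that did not pass the test. NPM1, nucleophosmin, was at 703, 717, 633, 751 and 639 CPM and then at 715, 778, 858, 750 and 823 CPM, with overlap; its log2 difference of 0.19 had an adjusted p of 0.145 in edgeR's test. With each clone as a block, FBL and NPM1 were called too, so that all 43 rose, where 45% of all genes were called either way.

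**Figure D2:**
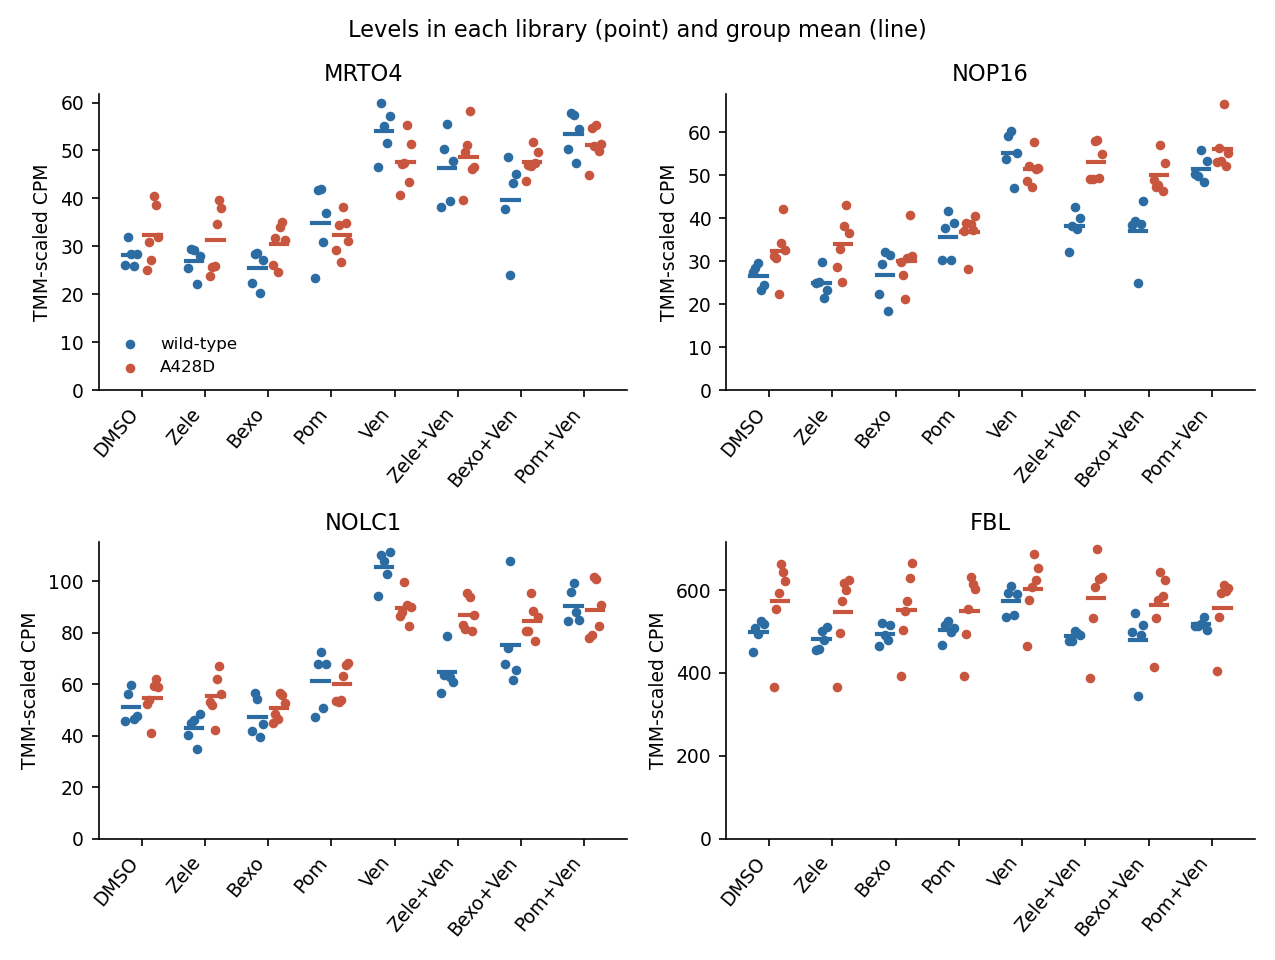
Normalised level (TMM-scaled CPM, axes from 0) of MRTO4, NOP16, NOLC1 and FBL in each library of the 8 conditions of the 24 h set; points are libraries, lines group means, blue wild-type and red A428D. Under venetoclax NOLC1 is at 94.3 to 111 CPM in wild-type clones, while FBL changes little between conditions and its lowest A428D library belongs to clone 1 in each.

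Some of these counts share sequence with neighbours. In the GENCODE v29 annotation 15 members have another gene over their 3′ end, among them POLR1C (XPO5), TSR1 (SRR), NOP16 (ARL10), HEATR1 (LGALS8), NHP2 (RMND5B), GNL3 (GLT8D1), UTP4 (SNTB2), GRWD1 (KCNJ14) and PPAN (the read-through gene PPAN-P2RY11 and P2RY11). Whether strand was used in counting is not given in the sources used here, so reads of these genes and their neighbours may not be told apart. NPM1, which has many processed pseudogenes, is uncertain in the same way. A further 36 small RNA genes, most of them snoRNAs, lie inside 13 of the members.

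The A428D clones answered venetoclax in the same direction. There 37 of 43 members rose and none fell, against 8.05% of all genes called higher, with a median log2 fold change of 0.48 beside -0.04 over all genes. In all 6 clones 38 members were higher, against 13% of all genes. The clone medians were more spread than in the wild type, from 0.18 in clone 5 to 0.83 in clone 3.

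RRP12 led here: its lowest, median and highest levels were 10.2, 15.8 and 16.9 CPM in DMSO and 21.7, 23.6 and 26.9 CPM in venetoclax (0.745, SE 0.13, adjusted p = 3.99e-05). NOLC1 was at 40.9, 56.3 and 61.9 CPM and then at 82.4, 89 and 99.6 CPM (0.717, SE 0.11, adjusted p = 1.7e-06). Both genes were separate in range. NOP16 was at 22.4, 31.9 and 42.2 CPM and then at 47.2, 51.5 and 57.7 CPM (0.673, SE 0.12, adjusted p = 2.46e-05), and the processome protein UTP15 rose by 0.634 (SE 0.13, adjusted p = 0.000185). GAR1, TSR1, POLR1B, WDR12, MRTO4 and NIP7 rose by 0.55 to 0.59. The 6 members without a call were FBL at 0.07, NPM1 at 0.12, NOP10 at 0.09, BYSL at 0.40, DDX18 at 0.20 and NLE1 at 0.04; in BYSL the DMSO range of 12.6 to 25.4 CPM overlapped that of venetoclax, 20.5 to 29.1 CPM.

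**Figure D3:**
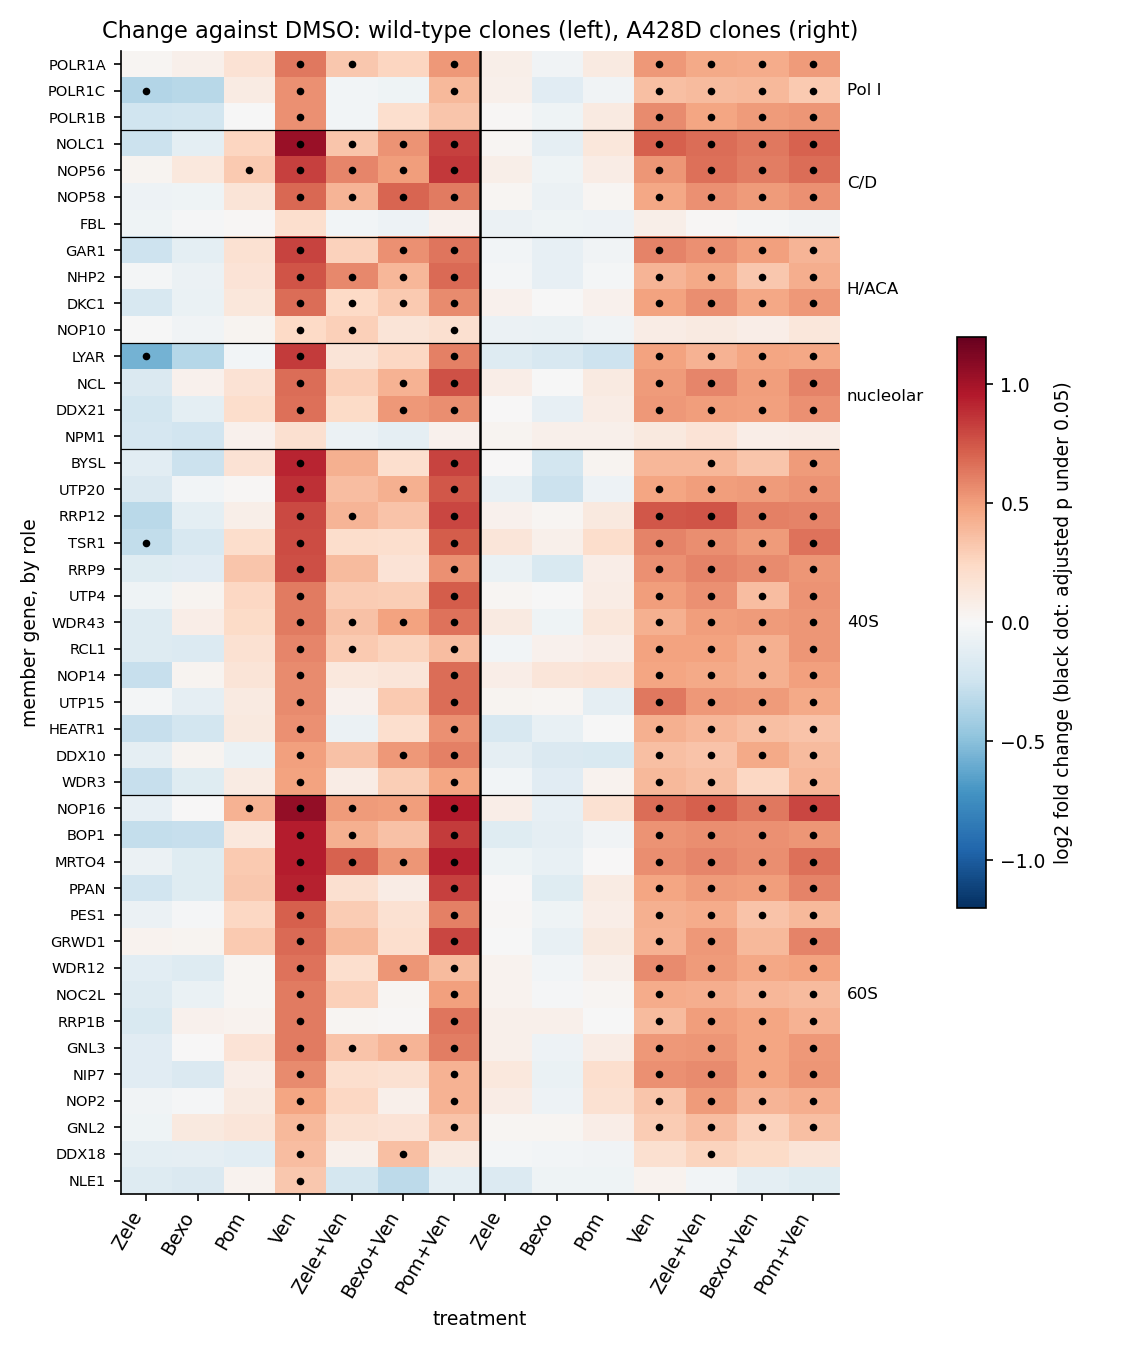
Log2 fold change against DMSO of each of the 43 members (rows, by role) under the 7 treatments, wild-type clones at left and A428D clones at right. In the venetoclax columns the wild-type values run from 0.19 to 1.05, and the wild-type columns for zelebrudomide or bexobrutideg with venetoclax are paler than the A428D ones.

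No difference between the genotypes in the answer to venetoclax was called for any member by edgeR, nor for any gene tested (0%); DESeq2 called 0 members as well. At an unadjusted p under 0.05 there were 9 members, beside 709 of all 14962 genes. All 9 had the smaller change in A428D, the largest being BYSL at -0.51 (SE 0.22) and PPAN at -0.45 (SE 0.20). The normal 95% intervals of the members' differences, from their SE, had a median half-width of 0.323 on the log2 scale, so that differences of that order were not resolved.

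Without venetoclax the degraders and pomalidomide moved few members in wild-type clones. Under zelebrudomide alone 3 of 43 fell and none rose, with 3.52% of all genes called lower and a members' median of -0.15. LYAR was at 21.8, 26.2, 27.3, 21.9 and 24.6 CPM in DMSO and at 14.8, 15.9, 18.9, 16 and 16.5 CPM under zelebrudomide (-0.569, SE 0.14, adjusted p = 0.00448), with no overlap. POLR1C fell by 0.356 (SE 0.11, adjusted p = 0.0238), with 1 zelebrudomide library, at 23.6 CPM, inside the DMSO range. The 40S factor TSR1 fell by 0.291 (SE 0.10, adjusted p = 0.0477). With the clone block 5 members were called, of 16.2% of all genes either way, NOLC1 at -0.26 among them (adjusted p = 0.0371, against 0.211 without it). These 3 calls were lost, in whole or in part, when a wild-type clone was left out: none remained without clone 2 and 1 each without clones 3, 4 or 5.

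Bexobrutideg alone gave no called member by edgeR, against 2.45% of all genes, and DESeq2 called 0. At an unadjusted p under 0.05 there were 4 members, all lower. Of all 14962 genes 2015 were, either way, which is a larger share. Without A428D clone 3, whose libraries share the estimate of spread, 1 was called. POLR1C was nearest at -0.34 (SE 0.11, adjusted p = 0.0667), and LYAR was at -0.34 (SE 0.14, adjusted p = 0.225); both passed with the clone block (adjusted p = 0.0066 and 0.0257), under which 3 members were called, all lower, of 10.6% of all genes. The members' 95% bounds reached from -0.612 to 0.356.

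Zelebrudomide and bexobrutideg, both of which bind BTK and cereblon, were compared directly in these clones. No member differed by edgeR, where 1.23% of all genes did, and DESeq2 called 0 members. Below an unadjusted p of 0.05 there was 1 member, beside 1196 of 14962 genes. The median 95% half-width was 0.248, and the bounds over the members ran from -0.574 to 0.482. The largest difference was in NOP14, a small subunit factor, at -0.31 for zelebrudomide minus bexobrutideg (SE 0.14, adjusted p = 0.499). This was the only pair of single agents compared with each other.

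Under pomalidomide 2 members were called higher in wild-type clones, a share no larger than the 5.36% of all genes called higher. NOP16 was at 30.2, 37.7, 41.5, 30.1 and 38.8 CPM, each above the DMSO range given before (0.42, SE 0.13, adjusted p = 0.0208). NOP56 was at 130, 172, 189, 140 and 173 CPM, of which the lowest, 130 and 140 CPM, overlapped DMSO (0.313, SE 0.10, adjusted p = 0.0312). Under the block by clone 6 rose, of 19.2% of all genes either way. No call remained without clone 2 or without clone 5, and 1 each without clone 3 or clone 4.

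The A428D clones gave no called member by edgeR under any of these 3 agents: the share of all genes called was 2.06% for zelebrudomide, 0% for bexobrutideg and 8.68% for pomalidomide, and DESeq2 called 0 members in each. At an unadjusted p under 0.05 there were 0, 0 and 1 members, beside 1436, 288 and 2760 of 14962 genes. The clone block added 1 call under pomalidomide, of 16.7% of all genes (TSR1, 0.21, adjusted p = 0.0327). LYAR was at -0.15 under zelebrudomide (SE 0.12, adjusted p = 0.846) and at -0.19 under bexobrutideg. The members' 95% bounds were -0.415 to 0.336 for zelebrudomide and -0.522 to 0.38 for bexobrutideg.

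The tests of the genotype difference in these single-agent responses called no member by edgeR. Of all genes they called 1.04% for zelebrudomide, 0.615% for bexobrutideg and 0% for pomalidomide. At an unadjusted p under 0.05 there were 4, 2 and 0 members, beside 1489, 1201 and 253 of 14962 genes. DESeq2 called 1, 0 and 0 members. The nearest was TSR1 for zelebrudomide, 0.44 higher in A428D (SE 0.13, adjusted p = 0.0705). With the clone block TSR1 (adjusted p = 0.00713) and POLR1C (adjusted p = 0.0198) passed for zelebrudomide, of 6.76% of all genes, and NPM1 for bexobrutideg (0.29, adjusted p = 0.0339), of 5.03%.

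Adding a degrader to venetoclax lowered the members in wild-type clones relative to venetoclax alone. With zelebrudomide 27 of 43 fell and none rose, where 9.61% of all genes were called lower, and the median was -0.39 beside 0.03 over all genes. With bexobrutideg 28 fell and none rose, where 7.51% were called lower, and the median was -0.36. These comparisons share the venetoclax libraries. Lower in all 5 clones were 38 members with zelebrudomide (18.8% of all genes) and 27 with bexobrutideg (11.5%). Without the shallowest library the counts of members called lower were 35 and 33. Fitted on the groups compared alone, the bexobrutideg count was 4. Library measures moved with the additions in wild-type clones: mitochondrial transcripts held 7.73 to 8.945% of counts in venetoclax and 9.41 to 10.3% with zelebrudomide, and depth was 6490252 to 7393694 reads against 3149400 to 6123117, both without overlap. With bexobrutideg the 4 libraries other than the shallowest had 9.22 to 9.96% and 4475082 to 6110216 reads. In A428D clones the mitochondrial share was 6.92 to 9.05% in venetoclax and 6.83 to 9.12% with zelebrudomide. Their part in the members' changes was not tested.

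PPAN fell most in both. It stood at 33.3, 41.4, 38.5, 37.5 and 35.7 CPM in venetoclax, at 19.1, 17, 27.4, 22.8 and 26.7 CPM with zelebrudomide added (-0.731, SE 0.16, adjusted p = 0.000265), and at 23.7, 22.8, 3.99, 27 and 21.1 CPM with bexobrutideg added (-0.834, SE 0.15, adjusted p = 4.26e-05). No library with a degrader reached the lowest venetoclax library. Without the shallowest library the bexobrutideg change was -0.679. Both combinations overlapped DMSO, 18.1, 23.5, 20.3, 17.1 and 19.2 CPM.

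NOLC1 fell from the venetoclax levels given before to 56.6, 63.7, 78.7, 62.9 and 60.8 CPM with zelebrudomide (-0.712, SE 0.12, adjusted p = 2.83e-06), all below venetoclax. With bexobrutideg it was at 67.9, 74.2, 108, 61.4 and 65.6 CPM, where the 108 CPM is the library set apart. LYAR fell from 43.6, 42.6, 42.3, 44.8 and 44.3 CPM to 23.4, 30.6, 27.1, 26.5 and 28.3 CPM with zelebrudomide (-0.685, SE 0.14, adjusted p = 0.00012) and to 29.4, 27.8, 28.9, 27.5 and 31.4 CPM with bexobrutideg (-0.585, SE 0.14, adjusted p = 0.00128). Its ranges were separate in both comparisons.

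By role, all 3 polymerase subunits fell with zelebrudomide and 2 with bexobrutideg; POLR1C was at 37.4, 38.2, 37.6, 36.9 and 39.4 CPM in venetoclax and at 23.6, 28.3, 25.5, 23.2 and 26.5 CPM with zelebrudomide (-0.584, SE 0.11, adjusted p = 2.06e-05), and fell by 0.602 with bexobrutideg (SE 0.11, adjusted p = 1.66e-05). Of the 13 small subunit factors 8 and 9 fell. TSR1 fell by 0.571 and by 0.575 (SE 0.09 in each, adjusted p = 3.68e-06 and 4.78e-06), HEATR1 by 0.622 with zelebrudomide (SE 0.13, adjusted p = 0.000216) and BYSL by 0.716 with bexobrutideg (SE 0.17, adjusted p = 0.00174). Without the shallowest library the bexobrutideg values of LYAR, POLR1C, TSR1 and BYSL were -0.608, -0.574, -0.607 and -0.566, all called. The bexobrutideg counts by role include that library. Without it POLR1B was called too (-0.572, edgeR adjusted p = 0.00218), so that all 3 polymerase subunits fell with either degrader. Of the small subunit factors UTP15 and WDR3 were then called, and RRP12 and UTP4 no longer were.

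Of the 15 factors of 60S assembly 10 fell with zelebrudomide and 11 with bexobrutideg. Without the shallowest library DDX18, GNL2, GNL3 and WDR12 were also called lower with bexobrutideg, and GRWD1 and MRTO4 no longer were. RRP1B was at 40.2, 44.9, 47.1, 36.2 and 41.6 CPM in venetoclax and at 30.5, 26.6, 31.4, 22.5 and 27.5 CPM with zelebrudomide (-0.605, SE 0.13, adjusted p = 0.000188), without overlap, and fell by 0.608 with bexobrutideg (-0.606 without the shallowest library). NOP16 fell by 0.539 with zelebrudomide (SE 0.13, adjusted p = 0.0013), and BOP1 by 0.593 with bexobrutideg (SE 0.15, adjusted p = 0.00353), or by 0.427 without the library of 6.48 CPM. NLE1, a 60S remodelling partner, fell by 0.635 with bexobrutideg (SE 0.13, adjusted p = 0.00018), or by 0.53 without the shallowest library. Of the snoRNP proteins GAR1 fell by 0.535 with zelebrudomide (SE 0.14, adjusted p = 0.00301) and DKC1 changed by -0.425 with zelebrudomide and -0.355 with bexobrutideg, while NOP10 was at 0.05 and -0.08, neither called. FBL was at -0.23 and -0.26, neither called. Without the shallowest library GAR1 (-0.514, edgeR adjusted p = 0.00304) and NOP58 were called lower with bexobrutideg, and NHP2 and NOP56 no longer were.

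Set against DMSO, the combinations left fewer members raised than venetoclax alone, by their own counts in wild-type clones. Zelebrudomide with venetoclax raised 14 of 43 (11.9% of all genes called higher; median 0.29), bexobrutideg with venetoclax 16 (10.8%; 0.26), and neither lowered any. With the clone block 26 rose in the first, of 35.1% of all genes either way, and in the second 24 rose and 1 fell, of 32.5%. The zelebrudomide count became 21 without the shallowest library, 6 (5 up, 1 down) on library totals and 5 with no expression filter, and 7 without wild-type clone 4 or 5, and the bexobrutideg count 17 without that library. Fitted on the compared groups alone, the bexobrutideg count was 1 and the zelebrudomide count 23. MRTO4 rose by 0.707 in the zelebrudomide combination (SE 0.14, adjusted p = 4.83e-05) and by 0.525 in the bexobrutideg one, NOP56 by 0.586 and 0.504, NOP16 by 0.508 and 0.498 and NOLC1 by 0.33 and 0.538. NOP58, the other C/D core protein, rose by 0.695 with bexobrutideg (SE 0.12, adjusted p = 6.55e-06), or by 0.41 without the shallowest library (adjusted p = 0.00137), in which it stood at 336.9 CPM against 151 to 169 CPM in the other 4. Without that library the bexobrutideg changes of MRTO4, NOP56, NOP16 and NOLC1 were 0.622, 0.586, 0.575 and 0.383.

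Pomalidomide with venetoclax raised 38 of 43 members in wild-type clones, where 17.7% of all genes were called higher, and the median was 0.61. NOP16, MRTO4 and NOP56 led with 0.951, 0.927 and 0.848 (SE 0.13, 0.13 and 0.10, adjusted p = 6.99e-09, 3.45e-08 and 2.21e-10). Against venetoclax alone 1 member was called lower, a share no larger than the 3.1% of all genes called lower. It was NLE1, from 35.4, 44.5, 40.8, 37.3 and 39 CPM to 26.6, 32.3, 30.3, 26.6 and 29.3 CPM, without overlap (-0.44, SE 0.12, adjusted p = 0.0119). The clone block called 3, of 17.2% of all genes either way; none remained without wild-type clone 2, and 2 were called without A428D clone 1.

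In A428D clones all combinations raised most members against DMSO: 39 with zelebrudomide (12.2% of all genes called higher; median 0.50), 35 with bexobrutideg (7.02%; 0.46) and 38 with pomalidomide (14.5%; 0.51), and none fell. NOP16 rose by 0.719, 0.631 and 0.797 in these and NOLC1 by 0.673, 0.636 and 0.705. Against venetoclax alone edgeR called no member in any of the 3, of 1.07%, 0% and 7.91% of all genes, and DESeq2 called none. No member was at an unadjusted p under 0.05, where 1265, 232 and 2772 of 14962 genes were. The members' medians were 0.02 with zelebrudomide and -0.04 with bexobrutideg, and their 95% bounds -0.357 to 0.393 and -0.395 to 0.35. NOLC1, at 82.4 to 99.6 CPM in venetoclax, was at 80.7 to 95.4 CPM with zelebrudomide and 76.7 to 95.5 CPM with bexobrutideg, 3 ranges that overlap almost wholly.

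The difference between the genotypes in what a degrader added to venetoclax was tested directly. For zelebrudomide 9 of 43 members were higher in A428D relative to wild type and none lower, where 2.99% of all genes were called higher, with a median difference of 0.40. For bexobrutideg it was 5 and none, where 1.57% were called higher, with a median of 0.31. Blocked by clone, the counts were 29, of 18.2% of all genes either way, and 19, of 10.9%, and without the shallowest library 23 and 8. Without A428D clone 1 they were 17 and 8, and without wild-type clone 3 the first was 16. Fitted on the compared groups alone they were 24 and 3.

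For zelebrudomide the 9 were PPAN with a difference of 0.77 (SE 0.20, adjusted p = 0.0118), RRP1B with 0.73 (SE 0.17, adjusted p = 0.00273), NOLC1 with 0.67 (SE 0.16, adjusted p = 0.00344), LYAR with 0.62, POLR1C with 0.61 (SE 0.14, adjusted p = 0.00314), HEATR1 with 0.59, NOP16 with 0.58, TSR1 with 0.54 and DKC1 with 0.50, so that each role group held at least 1. For bexobrutideg they were PPAN with 0.86 (SE 0.20, adjusted p = 0.00642), RRP1B with 0.71, POLR1C with 0.63 (SE 0.14, adjusted p = 0.00286), the RNA methyltransferase NOP2 with 0.50 and TSR1 with 0.49; without the shallowest library these 5 differences were 0.699, 0.70, 0.601, 0.452 and 0.521, all called. In RRP1B the A428D clones were at 28.6, 32.5 and 36.4 CPM (lowest, median, highest) in venetoclax and at 30.3, 33.3 and 52.3 CPM with zelebrudomide, so they overlapped where the wild-type clones had not. Pomalidomide gave no such difference by edgeR, of 0% of all genes, and 0 by DESeq2. At an unadjusted p under 0.05 there were 0 members, beside 285 of 14962 genes.

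**Figure D4:**
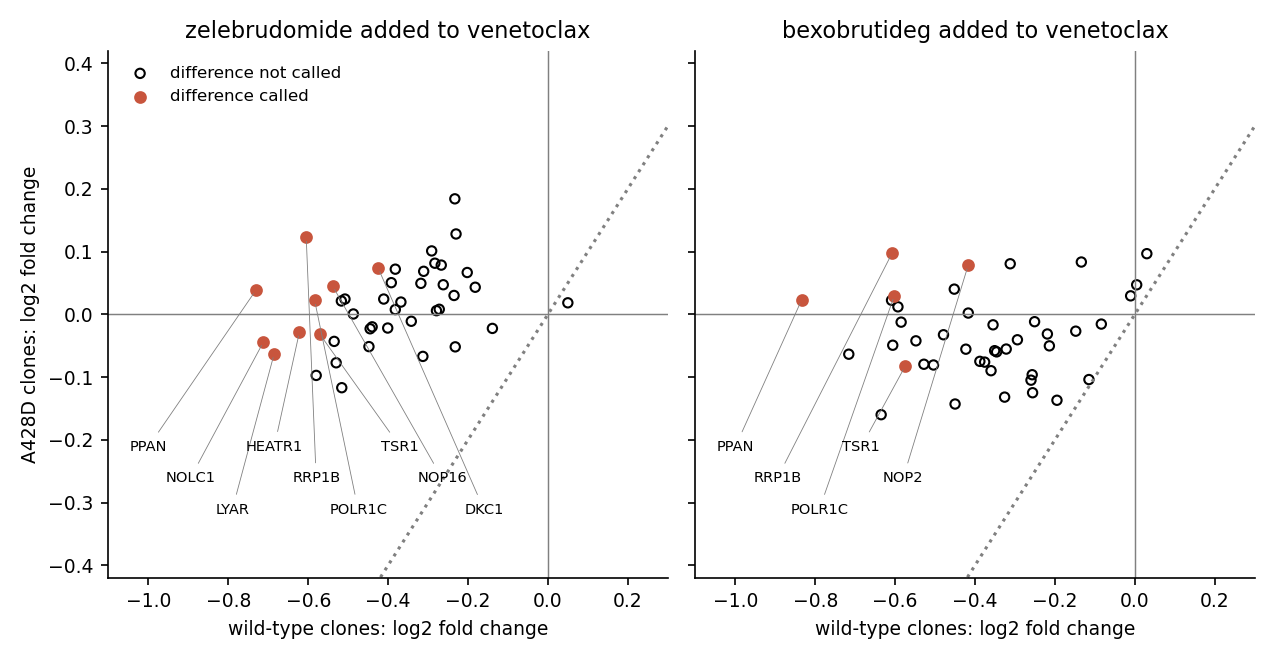
Log2 fold change of each member when zelebrudomide (left) or bexobrutideg (right) is added to venetoclax, wild-type clones on the x axis and A428D clones on the y axis; filled points are members whose genotype difference was called, the dotted line marks equal change. Nearly all members lie left of 0 and near 0 in height, PPAN at -0.73 and -0.83 on the x axis.

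Measured from DMSO instead, the genotype difference of the combined treatments was called for no member by edgeR, with 3.32% of all genes for zelebrudomide, 1.94% for bexobrutideg and 0.00668% for pomalidomide with venetoclax. At an unadjusted p under 0.05 there were 9, 4 and 0 members, beside 2429, 1852 and 513 of 14962 genes. DESeq2 called 1, 0 and 0 members. Fitted with the block, 8 were called for zelebrudomide with venetoclax, of 11.6% of all genes, RRP1B among them (0.48, adjusted p = 0.0243 against 0.104), and 1 for bexobrutideg, of 7.45% (POLR1C, 0.44, adjusted p = 0.0225 against 0.0948). Both contrasts use the DMSO libraries, while the difference just described does not. The members' median difference from DMSO was 0.22 for zelebrudomide with venetoclax and 0.15 for bexobrutideg with venetoclax, with 38 and 34 of 43 above 0. For venetoclax alone it was -0.18, with 2 of 43 above 0. For each member the added-degrader difference is that of the combination minus that of venetoclax alone, so it holds both.

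Of 102 other genes of the pathway, 70 rose and 2 fell under venetoclax in wild-type clones (median 0.35), where 15.4% of all genes were called higher and 17.4% lower. In A428D clones 49 rose and 1 fell (0.25), where 8.05% were called higher and 8.79% lower. RRP7A, PNO1 and EMG1, all of the small subunit pathway, led the wild-type rises with 1.2, 1.06 and 1.03 (edgeR adjusted p = 7.44e-09, 2.34e-07 and 7.09e-08). POLR1D, a subunit shared by RNA polymerases I and III, fell by 0.249 and the helicase DDX54 by 0.333. Zelebrudomide added to venetoclax lowered 30 and raised 2 in wild-type clones, UTP25 most at -0.799 (adjusted p = 4.5e-06), and bexobrutideg 24 and 2; of all genes 9.61% and 7.51% were called lower there, and 11.6% and 8% higher. In UTP25 the genotypes differed by 0.836 for zelebrudomide (adjusted p = 0.000824) and 0.733 for bexobrutideg (adjusted p = 0.00592). Of these, the 12 other polymerase I genes had 3 higher and 1 lower under venetoclax in wild-type clones, at a median of -0.04, which is near the shares over all genes.

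The 78 cytosolic ribosomal protein genes, whose products these factors assemble, were mostly not called under venetoclax. It raised 1 and lowered 1 of them in wild-type clones (median -0.13), and raised 1 and lowered 13 in A428D clones (-0.19), where 8.79% of all genes were called lower. Zelebrudomide added to venetoclax raised 37 in wild-type clones and lowered none (0.25), where 11.6% of all genes were called higher. On library totals, which move the median of all genes in that comparison from 0.03 to -0.13, it raised 26 and lowered 1. For bexobrutideg 18 were raised and none lowered, where 8% of all genes were called higher, at a median of 0.06 that becomes -0.00 on library totals. These bexobrutideg values include the shallowest library, and the list was not counted without it. Its ribosomal protein share was 23.5%, against 34.7 to 36.8% in the others of its group. The share was 31.99 to 33.58% in venetoclax and 34.29 to 36.34% with zelebrudomide added, in wild-type clones. Zelebrudomide's genotype difference was lower in A428D for 13 of the 78, where 3.22% of all genes were called lower.

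Of 20 proliferation genes 12 rose and none fell under venetoclax in wild-type clones (median 0.96), where 15.4% of all genes were called higher, and 10 rose in A428D clones (0.66), where 8.05% were. When zelebrudomide was added to venetoclax 3 fell in wild-type clones (-0.43), where 9.61% of all genes were called lower. With the clone block 12 fell, where 2317 of 14962 genes were called lower. When bexobrutideg was added edgeR called 0 (-0.21), of 15.5% of all genes, and DESeq2 called 1. At an unadjusted p under 0.05 in edgeR's test there were 4 of the 20, beside 4349 of 14962 genes. With the block 7 fell after bexobrutideg was added, where 1903 of 14962 genes were called lower. Summed B cell markers were at 3145 to 3408 CPM in wild-type DMSO and 2430 to 2820 CPM in venetoclax, and at 2808 to 3457 and 2394 to 2937 CPM in the A428D clones. The part of either list in the members' changes was not tested.

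**Figure D5:**
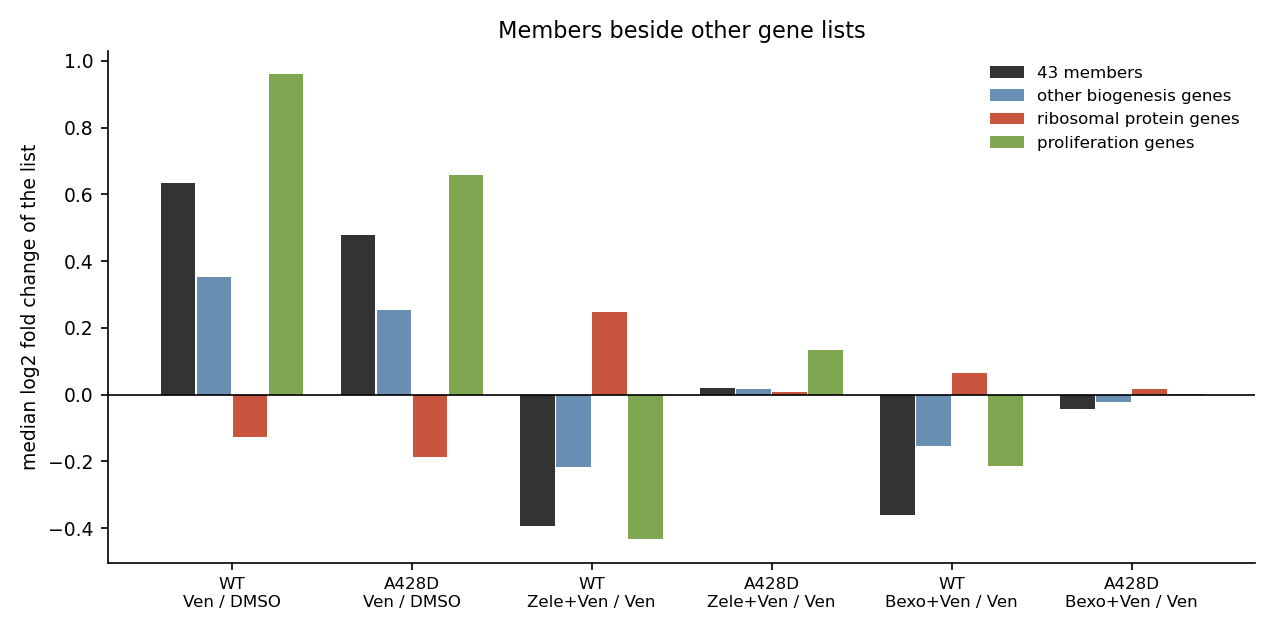
Median log2 fold change of 4 gene lists (43 members, 102 other biogenesis genes, 78 ribosomal protein genes, 20 proliferation genes) in 6 comparisons, bars from 0. The members' bars are at 0.63 and 0.48 for venetoclax and at -0.39 and -0.36 for the degraders added in wild-type clones, and near 0 for the degraders added in A428D clones.

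MYC itself was at 99.1, 134.7, 134.9, 96.8 and 112.5 CPM in wild-type DMSO and at 182, 194.5, 204, 184.7 and 173 CPM in venetoclax (0.699, adjusted p = 0.00347), without overlap, and changed by 0.567 in A428D clones (adjusted p = 0.0185). Among wild-type clones zelebrudomide gave a MYC change of -0.785 (adjusted p = 0.00572), and zelebrudomide added to venetoclax one of -0.78 (adjusted p = 0.00246). For bexobrutideg added to venetoclax it was at -0.13 (adjusted p = 0.724) with the shallowest library, in which it stood at 378 CPM, and at -0.62 (adjusted p = 0.00803) without it; against DMSO that combination gave 0.571 (adjusted p = 0.0276) with it and 0.09 (adjusted p = 0.767) without. Under bexobrutideg alone it was at -0.50 (adjusted p = 0.202), or called with the clone block (adjusted p = 0.00448). Without the shallowest library, zelebrudomide with venetoclax against DMSO gave a MYC change of -0.0894 in wild-type clones (edgeR adjusted p = 0.732). The members' median there was 0.277. Also without that library, pomalidomide with venetoclax against DMSO gave MYC 0.401 in wild-type clones (edgeR adjusted p = 0.0388), beside a members' median of 0.617. In the same fit without that library, the zelebrudomide, bexobrutideg and pomalidomide combinations gave MYC 0.421, 0.461 and 0.425 in A428D clones (edgeR adjusted p = 0.022, 0.0173 and 0.0179). Venetoclax alone gave 0.581 there (adjusted p = 0.00226). The library left out is in none of these groups, but it enters the estimate of spread that all groups share. Members with the E-box had a median change of 0.62 under venetoclax in wild-type clones and those without it 0.63. For zelebrudomide added to venetoclax these medians were -0.35 and -0.40, and in A428D clones under venetoclax 0.48 and 0.48.

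Between the genotypes at rest, edgeR called no member in DMSO, where 7.13% of all genes were called, and DESeq2 called 1. At an unadjusted p under 0.05 there were 5 members, 4 higher and 1 lower in A428D, beside 3290 of 13397 genes, which is a larger share. Without A428D clone 1 there were 5 calls and without A428D clone 3 there were 3. The members' median in DMSO was 0.06, with 28 of 43 above 0, or -0.04 on library totals, with 17 above 0. In the untreated set 8 of 43 were lower in A428D and none higher, where 2.4% of all genes were called lower, with a median of -0.11. RRP1B was at 76.9, 80.5, 77, 78.7 and 83.5 CPM in wild-type clones and at 60.1, 62.1 and 67.9 CPM (lowest, median, highest) in A428D clones (-0.324, SE 0.05, adjusted p = 0.000552). WDR3 was at 58.1, 72.5, 65.4, 66.6 and 74.4 CPM against 52.4, 54.3 and 58.8 CPM (-0.304, SE 0.06, adjusted p = 0.00588), with 1 wild-type clone inside the A428D range, and RRP1B had none. LYAR, NOC2L, NOP56, NPM1, GAR1 and PES1 fell by 0.155 to 0.23. The count was 4 without wild-type clone 2 or 5, and 5 without wild-type clone 4 or A428D clone 3.

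Untreated cultures held the highest member levels. On library totals the mean of untreated over DMSO libraries was 2.21 at the median member in wild-type clones and 2.07 in A428D clones, beside 1.1 and 1.2 over all genes. All untreated libraries were above all DMSO libraries for 42 of 43 members in wild type and 41 in A428D. The share of all genes that separated in this way was not counted, so these counts have no background to be read against. Ribosomal protein genes held 20.65 to 22.25% of counts in untreated wild-type libraries and 33.25 to 36.19% in wild-type DMSO. In A428D libraries they held 21.82 to 23.76% and 35.33 to 38.47%. NOP16 had the highest ratio, 4.31 and 3.43, and FBL the lowest, 1.04 and 0.935. The members' summed share was 0.704 to 0.763% in untreated wild-type clones, 0.745% in the parental line, 0.337 to 0.396% in wild-type DMSO and 0.515 to 0.574% in venetoclax. The set a library belongs to and its exposure cannot be told apart here, so these ratios carry no test.

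Over the 16 group means of the drug set the members resembled one another, each being correlated with the mean of the rest at a median r of 0.94 across groups that share clones and controls. The exceptions were NLE1 at 0.358, FBL at 0.591 and NPM1 at 0.69. The genes outside the list most like the members' mean were EIF2S1, a subunit of translation initiation factor 2, NDUFAF8, TTLL12, FARSB, a phenylalanine tRNA synthetase subunit, and HNRNPAB, at r of 0.988 to 0.990. These are descriptions over 16 means, with no test.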

How the data were processed

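Each of the 100 libraries was a 3′ RNA-seq library from TMD8 cells, with 1 to 6 clones a group. Upstream software, per the submitters' processing notes, included STAR 2.7.11 and featureCounts from Subread 2.1.1 with genome build GRCh38, reads having passed fastp 0.24.0. The values deposited by the authors are expected counts per gene, 8.748% of them not whole, and were rounded; the 92 spike-in rows were left out.

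Counts were fitted with edgeR 4.0.16 (TMM, robust quasi-likelihood test, minimum count 10 and minimum total 15), 1 fit over the 88 drug libraries and 1 for each genotype comparison, with Benjamini-Hochberg adjustment over all genes and calls at 0.05. Per-library values are TMM-scaled CPM; intervals are normal 95% intervals. Clones are replicates, and p-values measure the spread between them. Clone numbers pair the drug libraries, since every clone received every condition (median correlation of deviations 0.614 within a clone and -0.18 between clones of a genotype, over 500 genes; 88 of 88 libraries were nearest to their own clone). Alternatives were DESeq2 1.42.0, library totals, RLE, no filter, the compared groups alone, the clone block, and each clone left out. The members and lists were chosen with earlier results of these data known, and the 7 comparisons of combinations with venetoclax that test pomalidomide, A428D clones or a genotype difference were added after the data were seen. Members named in a comparison come mostly from the up to 10 called with the largest change, and the largest in a role group with none called. Not all of these are printed, and MYC is given for some comparisons only. Per-library values follow the 8 members with the largest mean change, FBL, NCL and NPM1. They are also given for other members, chosen after their values were seen, as were the smallest changes. Of the other pathway genes up to 3 called per direction are named. Scripts were tested on simulated data, the pass mark at the largest fold being lowered once. Counting error limits low values, since members had 6 to 17191 reads a library.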

Additional observations from a re-analysis of the deposited data

Results flagged for a closer look

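Of 216 checks, each of 1 measure in 1 group of libraries, 19 held a library far from the others, where chance gives about 1 in 20. Checks of different genes in a group use the same libraries, so they are not independent. The third wild-type clone under bexobrutideg with venetoclax, the shallowest library, accounts for 6 values besides the members' share of 0.589% (the next being 0.417%): NOLC1 at 108 CPM and GAR1 at 126 CPM were high, and BOP1 at 6.48, BYSL at 2.99, RRP12 at 8.97 and FBL at 344 CPM were low. FBL was also low in 1 A428D library each of DMSO (367 CPM), pomalidomide with venetoclax (404 CPM) and the untreated set (414 CPM).

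The remaining values stood alone in their groups. NOP16 was low under pomalidomide in 1 A428D clone (28.1 CPM, the next 37) and high under pomalidomide with venetoclax in another library (66.5 CPM, the next 56.3). In that A428D group BOP1 had a library at 29.8 CPM and RRP12 one at 20 CPM. RRP12 had 1 at 8.7 CPM in wild-type clones under bexobrutideg and 1 at 9.43 CPM in A428D clones under pomalidomide. NCL was high in 1 wild-type library under venetoclax (892 CPM) and 1 A428D library under bexobrutideg with venetoclax (1004 CPM), and NPM1 was low in 1 A428D library under venetoclax (649 CPM).

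The genotypes differed by the interaction test, on the log2 scale and higher in A428D, when zelebrudomide was added to venetoclax for PPAN (0.77), RRP1B (0.73), NOLC1 (0.67), LYAR (0.62), POLR1C (0.61), HEATR1 (0.59), NOP16 (0.58), TSR1 (0.54) and DKC1 (0.50), and when bexobrutideg was added for PPAN (0.86), RRP1B (0.71), POLR1C (0.63), NOP2 (0.50) and TSR1 (0.49).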

How the results depend on the processing

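The rise under venetoclax kept its direction and its count within 1.5 times under every alternative run, in both genotypes (40 to 43 and 33 to 39 members when a clone was left out). Counts of called members that moved further were as follows, and the cause was not tested. In the drug set the block was the clone itself, with wild-type and A428D clones of the same number kept apart. With it zelebrudomide alone gave 5, bexobrutideg 3 and pomalidomide 6 (A428D 1) in wild-type clones. The zelebrudomide combination against DMSO gave 26 there and the bexobrutideg one 25. The genotype differences against DMSO gave 2, 1, 8 and 1 for zelebrudomide, bexobrutideg and their combinations. Pomalidomide added to venetoclax gave 3, and the added-degrader differences 29 and 19. For the other counts of members the block stayed within 1.5 times. Between the genotypes at rest the block was the replicate number, which does not pair clones (correlations -0.221 to -0.00626, 0 of 5 best with their own number). There it gave 3 calls untreated. On library totals bexobrutideg gave 1, pomalidomide 1, the zelebrudomide combination 6, the genotype differences 2 (zelebrudomide), 8 and 1 (combinations), zelebrudomide added to venetoclax 41, the genotypes 1 in DMSO and 14 untreated, and the added-degrader differences 24 and 14. With no filter zelebrudomide gave 1, pomalidomide 1, the zelebrudomide combination 5, the genotypes in DMSO 1 and the bexobrutideg difference 9. Fitted on the compared groups alone, zelebrudomide gave 5, bexobrutideg 2, pomalidomide 5, the zelebrudomide combination 23, the bexobrutideg one 1, bexobrutideg added to venetoclax 4, pomalidomide added 4 and the added-degrader differences 24 and 3. DESeq2 gave 1 for the zelebrudomide difference, 1 for that of its combination, 1 for the genotypes in DMSO and 10 for the added-bexobrutideg difference. Without the shallowest library the zelebrudomide difference was 1, that of its combination 1, pomalidomide added 2 and the added-degrader differences 23 and 8.

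Leaving out 1 clone gave 0 to 3 calls for zelebrudomide, 0 to 1 for bexobrutideg, 0 to 2 for pomalidomide, 7 to 15, 14 to 21 and 37 to 39 for the combinations with zelebrudomide, bexobrutideg and pomalidomide in wild-type clones, and 0, 0, 0 to 1, 35 to 39, 27 to 37 and 35 to 39 in A428D clones. It gave 21 to 35 and 22 to 29 for the degraders added to venetoclax, 0 to 2 for pomalidomide added, 7 to 17 and 4 to 8 for the added-degrader differences, 0 to 1 for the difference of the zelebrudomide combination, 0 to 5 between genotypes in DMSO and 4 to 12 untreated.

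Signs reversed for single genes, none of them called as reported. In the difference of the bexobrutideg combination NOP58 became 0.111 without the shallowest library, and ranged from -0.235 to 0.0532 when a clone was left out. So left out, POLR1A between the degraders ranged from -0.0712 to 0.0302, NCL with zelebrudomide added in A428D clones from -0.0205 to 0.111 and POLR1B with pomalidomide added there from -0.116 to 0.05. LYAR between the genotypes in DMSO was -0.00489 on library totals. MYC ranged from -0.0738 to 0.0123 for the pomalidomide difference (0.0259 on library totals), from -0.218 to 0.299 for that of the bexobrutideg combination (0.369 without the shallowest library), from -0.0894 to 0.0779 for that of the pomalidomide combination, from -0.57 to 0.0024 with bexobrutideg added in wild-type clones, from -0.00657 to 0.17 between genotypes in DMSO (-0.0293 on library totals), and from -0.124 to 0.451 for the added-bexobrutideg difference, which was -0.0192 by DESeq2, -0.00219 with RLE scaling, -0.0712 on library totals and -0.0137 on the compared groups alone. Depth limited the lowest members most, some having as few as 6 reads in the shallowest library.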
